A study of Sus scrofa with 63 samples.

Results

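The interferon-stimulated genes described here are 49 genes that respond to interferon, taken by name from the gene name column of the array files. Of the 49 genes, 42 had a probe under their own name, with 106 of the 60305 probes on the array. No probe carried the names IRF8, RSAD2, EIF2AK2, UBA7, HERC6, SOCS1 or NMI. After a filter on dim probes, 101 probes of 41 genes were tested among 40515 probes, and the probe of ADAR did not pass. Each of the 41 genes was represented by its brightest tested probe.

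RNA came from the middle jejunum of 63 male pig fetuses, 1 fetus per one-colour array. Large White (LW) and Meishan (MS) sows had been inseminated with mixed semen of both breeds, and the fetuses were obtained by caesarean at day 90 or day 110 of gestation, shortly before term. LW fetuses had both parents LW and MS fetuses had both parents MS, whereas MSLW fetuses had an LW sow and an MS sire and LWMS fetuses an MS sow and an LW sire. At day 90 there were 9 LW, 8 MSLW, 9 LWMS and 6 MS fetuses, and at day 110 there were 9, 6, 9 and 7. None of the 8 groups received a treatment. The fetuses had been chosen for a body weight near the mean of their litter and for RNA quality. The labels do not give the sow of each fetus, so litter mates counted as independent, and the p-values measure the spread between fetuses. Age and sow breed are shared by all fetuses of a litter. Purebred LW and MS fetuses also came from different litters, and the breed by age and sow breed by age interactions lie between litters too. For all of these comparisons the p-values do not measure the spread between sows and can be too small.

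Interferons are secreted proteins, many of which cells release on sensing foreign or misplaced nucleic acid. They act through the JAK-STAT pathway on transcription factors of the STAT and IRF families, STAT2 and IRF9 among them, which switch on a large set of antiviral genes in most cell types, the gut epithelium included. Type II interferon acts in part through IRF1 and raises the chemokines CXCL9 and CXCL10, the immunoproteasome and the peptide transporter TAP. The members fell into transcription factors (7 tested), sensors of nucleic acid (4), antiviral effectors (15), the ISG15 conjugation system (4), other regulators (4), antigen processing (5) and chemokines (2).

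The probes behind the largest differences, and the pairs that show how probes of 1 gene can agree or disagree, are given from the probe sequence column of the array files, 5′ to 3′. OAS1, PARP14, ISG15 and IRF2 are shown with a pair of probes each, PARP9 and BST2 with their only tested probe. Capitals mark the run of 43 bases that both ISG15 probes share, and the other probes shown have no shared run to mark. Their places on the genome are not given, because the files name no build. Between probes of different members the longest shared run was 12 of 60 bases.
OAS1 (A_72_P223657): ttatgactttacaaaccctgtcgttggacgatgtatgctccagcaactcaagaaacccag
OAS1 (A_72_P719688): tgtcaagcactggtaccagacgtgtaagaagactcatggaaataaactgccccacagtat
PARP9 (O3897): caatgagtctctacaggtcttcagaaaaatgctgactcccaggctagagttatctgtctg
PARP14 (A_72_P098451): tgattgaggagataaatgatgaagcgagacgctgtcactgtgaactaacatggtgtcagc
PARP14 (A_72_P391503): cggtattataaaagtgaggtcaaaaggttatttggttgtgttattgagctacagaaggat
BST2 (A_72_P276294): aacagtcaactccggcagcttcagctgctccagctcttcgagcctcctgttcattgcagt
ISG15 (A_72_P441219): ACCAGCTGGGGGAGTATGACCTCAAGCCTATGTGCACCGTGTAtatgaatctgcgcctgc
ISG15 (O11065): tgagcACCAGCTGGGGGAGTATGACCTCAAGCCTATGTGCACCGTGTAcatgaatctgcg
IRF2 (A_72_P371228): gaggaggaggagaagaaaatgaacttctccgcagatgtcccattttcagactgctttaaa
IRF2 (O10723): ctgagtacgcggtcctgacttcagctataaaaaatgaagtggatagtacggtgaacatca

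Between 51.2% and 87.6% of the probes of an array were well above background, as the scanner software flags it. The arrays lay on 8 slides of 7 or 8, with several groups on each slide. As a check of the labelled tissue, the mean log2 level of 9 enterocyte markers was 4.54 to 5.99 above the array's 75th percentile in every group. That of 9 mesenchymal and muscle markers was 4.73 to 5.38, so the check does not show which cell type prevailed. Of the 41 members, 33 were well above background on all 63 arrays, and PARP9 on the fewest, 38. Levels below are log2 values from which the array's 75th percentile was subtracted, and levels of different genes are not compared, since probes differ in brightness. Fetus 632 (MS, day 110) stood apart in these markers and in the members, as noticed after the data were seen. The enterocyte markers of fetus 632 averaged 1.80 against 4.91 to 6.14 in the other 6 fetuses of its group. Its mean over the 41 members was -0.72 against 0.28 to 0.52. Fetuses 572 and 575 (LW, day 110) had the highest means over the members of all fetuses, 1.54 and 1.33, against -0.20 to 0.64 in the other 7 fetuses of that group. Results that rest on these fetuses are given with and without them, except the changes with age of single genes by sow breed.

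The 8 groups allow 12 comparisons. The change with age is day 110 minus day 90, and breed differences are MS minus LW. For changes with age and for purebred fetuses, a call needed both an adjusted p no larger than 0.01 and a log2 difference no smaller than 0.5 in size. For the breeds of sow and sire a call needed an adjusted p under 0.05. All p-values were adjusted over the 40515 probes, and none over the members alone. Averaged over the 4 genotypes, 8 of 41 members changed with age, 19.5% against 13.7% of all probes tested. Of these, 5 were higher at day 110 (all probes: 6.12%) and 3 lower (7.62%), PARP9 among the 5. PARP9 passed the filter on dim probes through day 110 groups alone. Its calls, here and in MSLW below, are counted but are no evidence of a change. By sow breed 10 members differed, 24.4% against 15.9% of all probes. This excess was absent in some other fits, such as that of the authors' processed values, with 5 members where 15.2% of all probes were called. By sire breed 3 members differed, 7.32% against 6.97%. These shares describe the list and were not tested. For the mean change with age, 13 of 101 probes of the members were called, and 6 of 41 members with their probes averaged. Both lay near the share of all probes. By sire breed the share lay near that of all probes.

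**Figure D1:**
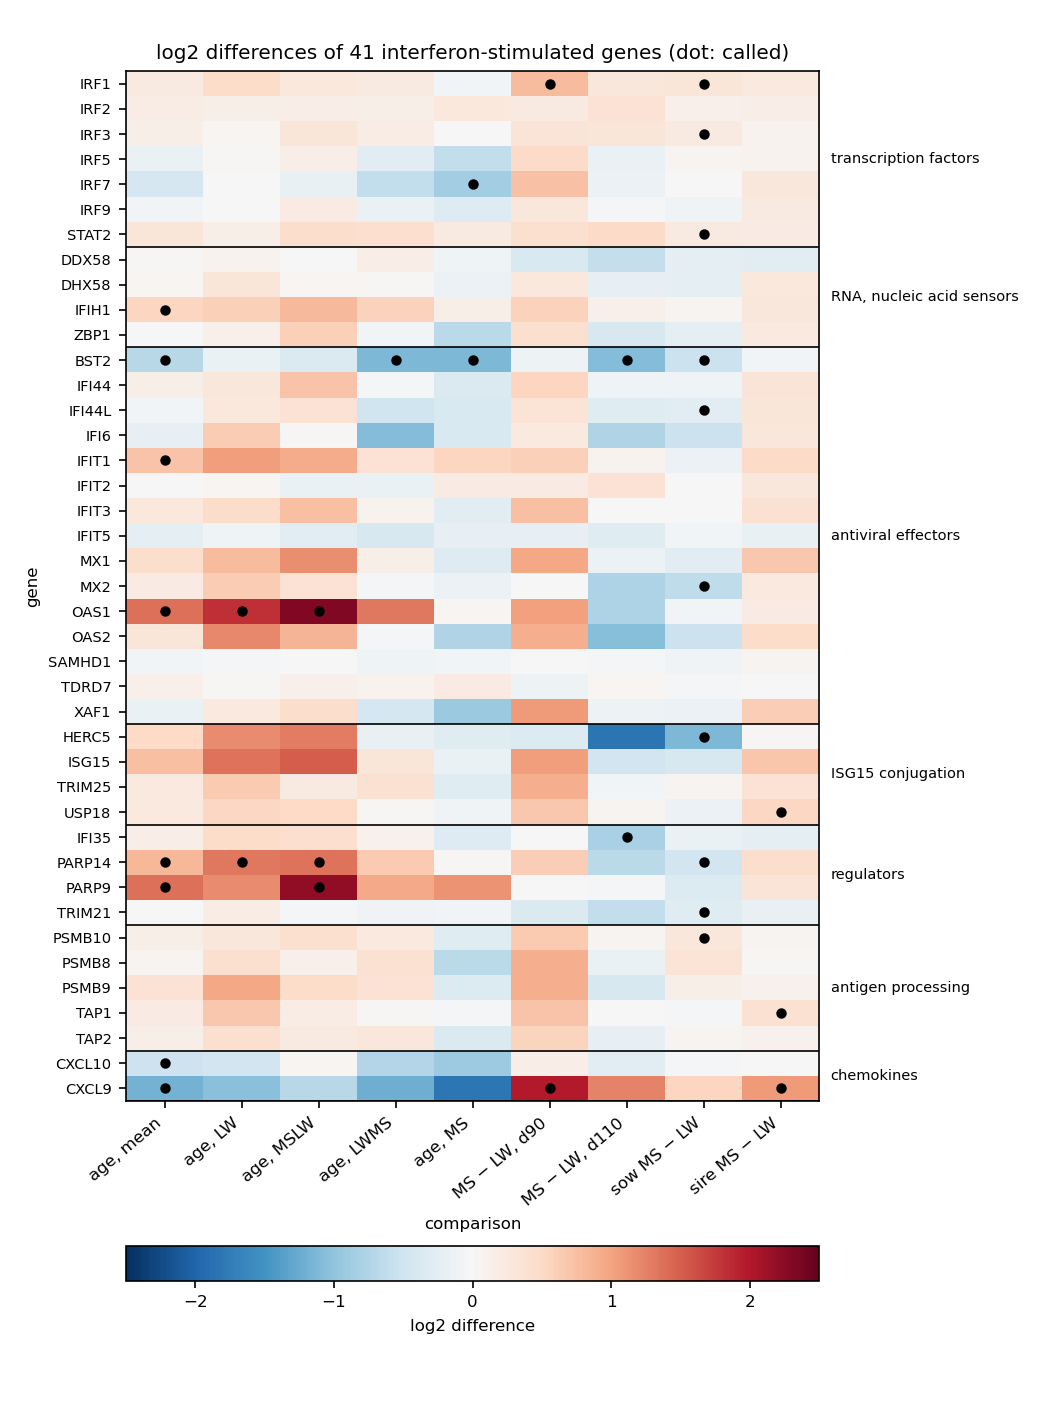
Log2 differences of the 41 tested members (rows, grouped by role) in 9 comparisons (columns), with red for higher at day 110 or in MS and blue for lower. A dot marks a member that met the thresholds of that comparison, as 8 did for the mean change with age, PARP9 included, and 10 for sow breed. A column has few dots even where most of its cells share a colour.

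The members with the largest differences upward were OAS1, PARP9, whose signal was near background, and PARP14. OAS1 senses double-stranded RNA and makes oligoadenylates as an antiviral signal. In LW fetuses OAS1 ranged from -0.81 to 2.85 at day 90 (median 0.52, n = 9) and from 1.97 to 4.00 at day 110 (median 2.80, n = 9). MSLW fetuses ranged from -0.53 to 2.85 (median 1.43, n = 8) and from 2.20 to 5.17 (median 3.90, n = 6). LWMS fetuses ranged from -0.16 to 2.63 (median 1.76, n = 9) and from 1.48 to 3.90 (median 3.02, n = 9). Purebred MS fetuses ranged from 0.66 to 2.91 (median 2.32, n = 6) and from 0.20 to 2.64 (median 2.40, n = 7). The median thus moved up in 3 genotypes and hardly in MS, and the ages overlapped in each genotype. The mean change of OAS1 was 1.38 ± 0.26 (SE) on the log2 scale, 2.60-fold, with an adjusted p of 2.5e-05. Its second probe, which shares no long run with the first, rose by 1.34. Since the tissue was measured whole, a change in the number of cells that use a gene and a change in RNA per cell cannot be told apart, here and in the other comparisons.

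PARP9 and PARP14 code for ADP-ribosyltransferases that act in the interferon response, and the genes lie close together, with 2 protein-coding genes between them in the RefSeq gene table. PARP9 was higher at day 110 by 1.37 ± 0.19. Its signal was low, and it passed the filter on dim probes through day 110 groups alone, so this difference and the one in MSLW below are given as descriptions with no p-value. The probe was well above background in 3 of 9 LW, 4 of 8 MSLW, 2 of 9 LWMS and 3 of 6 MS fetuses at day 90, and in 5 of 9, 6 of 6, 9 of 9 and 6 of 7 at day 110. Mean levels of PARP9 at day 90 were alike, from -5.34 ± 0.77 (SD) in LW to -5.22 ± 0.74 in MSLW, and at day 110 they were -4.15 ± 0.56 in LW, -2.99 ± 0.96 in MSLW, -4.30 ± 0.60 in LWMS and -4.19 ± 0.84 in MS. The means of all genotypes were higher at day 110. The exact difference is uncertain, since most day 90 arrays gave no PARP9 signal well above background. PARP14 rose by 0.84 ± 0.17 (adjusted p = 4.2e-05), and its second probe by 1.27. Its median went from -2.71 to -1.36 in LW, from -2.06 to -0.70 in MSLW, from -2.56 to -2.05 in LWMS and from -2.10 to -1.46 in MS, where fetus 632 had the lowest value at day 110, -4.90.

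The other members that rose were IFIT1 and IFIH1. IFIT1 binds foreign RNA that lacks the cap marks of host mRNA. It rose by 0.72 ± 0.21 (adjusted p = 0.0056), and lost its call when its probes were averaged (0.62). The mean level of IFIT1 went from -1.77 ± 0.60 to -0.72 ± 1.74 in LW, from -1.63 ± 0.56 to -0.70 ± 0.69 in MSLW, from -1.96 ± 0.38 to -1.61 ± 0.69 in LWMS and from -1.17 ± 0.53 to -0.63 ± 0.67 in MS. IFIH1, also known as MDA5, senses long double-stranded RNA. It rose by 0.53 ± 0.11 (adjusted p = 0.00012), just above the threshold of 0.5, and was at 0.48 to 0.50 with another background correction, with the authors' processed values or without fetuses 572 and 575, and at 0.43 with its probes averaged. The mean level of IFIH1 went from -0.69 ± 0.32 to -0.09 ± 0.54 in LW, from -0.45 ± 0.33 to 0.35 ± 0.28 in MSLW, from -0.57 ± 0.24 to 0.01 ± 0.39 in LWMS and from -0.11 ± 0.30 to 0.03 ± 0.85 in MS. In MS the median went from -0.13 to 0.36.

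Members that fell with age were both chemokines and BST2. CXCL9 and CXCL10 attract T cells and NK cells through the receptor CXCR3. CXCL9 fell by 1.19 on the log2 scale (SE 0.25, adjusted p = 0.00011), 2.28-fold. In MS fetuses CXCL9 ranged from -2.48 to -0.37 at day 90 (median -1.36) and from -6.28 to -2.12 at day 110 (median -2.36), and in LW fetuses from -4.73 to -2.35 (median -3.34) and from -5.24 to -3.12 (median -4.52). The same direction held in MSLW fetuses, with means of -2.23 ± 0.95 and -2.92 ± 1.13, and in LWMS fetuses, with -2.48 ± 1.41 and -3.69 ± 0.48. The probe of CXCL9 was well above background on 57 of 63 arrays, and on 5 of 9 in LW at day 110. CXCL10 fell by 0.51 (SE 0.14, adjusted p = 0.0019), with means of 2.20 ± 0.54 and 1.73 ± 0.41 in LW and of 2.37 ± 0.49 and 1.46 ± 0.84 in MS. Its call was lost without fetus 632 (-0.46), without fetuses 484 and 469 (-0.50), with median centring (-0.47) and with arrays weighted by quality (-0.34).

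BST2, or tetherin, holds budding virus particles at the cell membrane. It fell by 0.69 (SE 0.13, adjusted p = 9.5e-06), and passed within LWMS and MS. LWMS fetuses ranged from -1.22 to -0.18 at day 90 (median -0.96) and from -2.46 to -1.52 at day 110 (median -2.06), without overlap. MS fetuses ranged from -1.29 to 0.33 (median -0.60) and from -2.67 to -1.13 (median -1.83). In LW fetuses the medians were -0.47 and -0.28, with 2 fetuses near the lower end of -1.89 at day 110, and in MSLW fetuses they were -0.74 and -1.22. BST2 thus fell in LWMS by 1.11 (SE 0.23, adjusted p = 0.00028) and in MS by 1.13 (SE 0.27, adjusted p = 0.0048), and did not pass the test in LW or MSLW. The difference of these changes by sow breed, -0.86 ± 0.25, had an adjusted p of 0.095. All values of BST2 rest on 1 probe, whose strand relative to the BST2 mRNA was not settled, and the other probe did not pass the filter. The call in MS was lost without fetus 632 (-0.97) and with array weights (-0.79), and those in MS and LWMS with median centring.

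**Figure D2:**
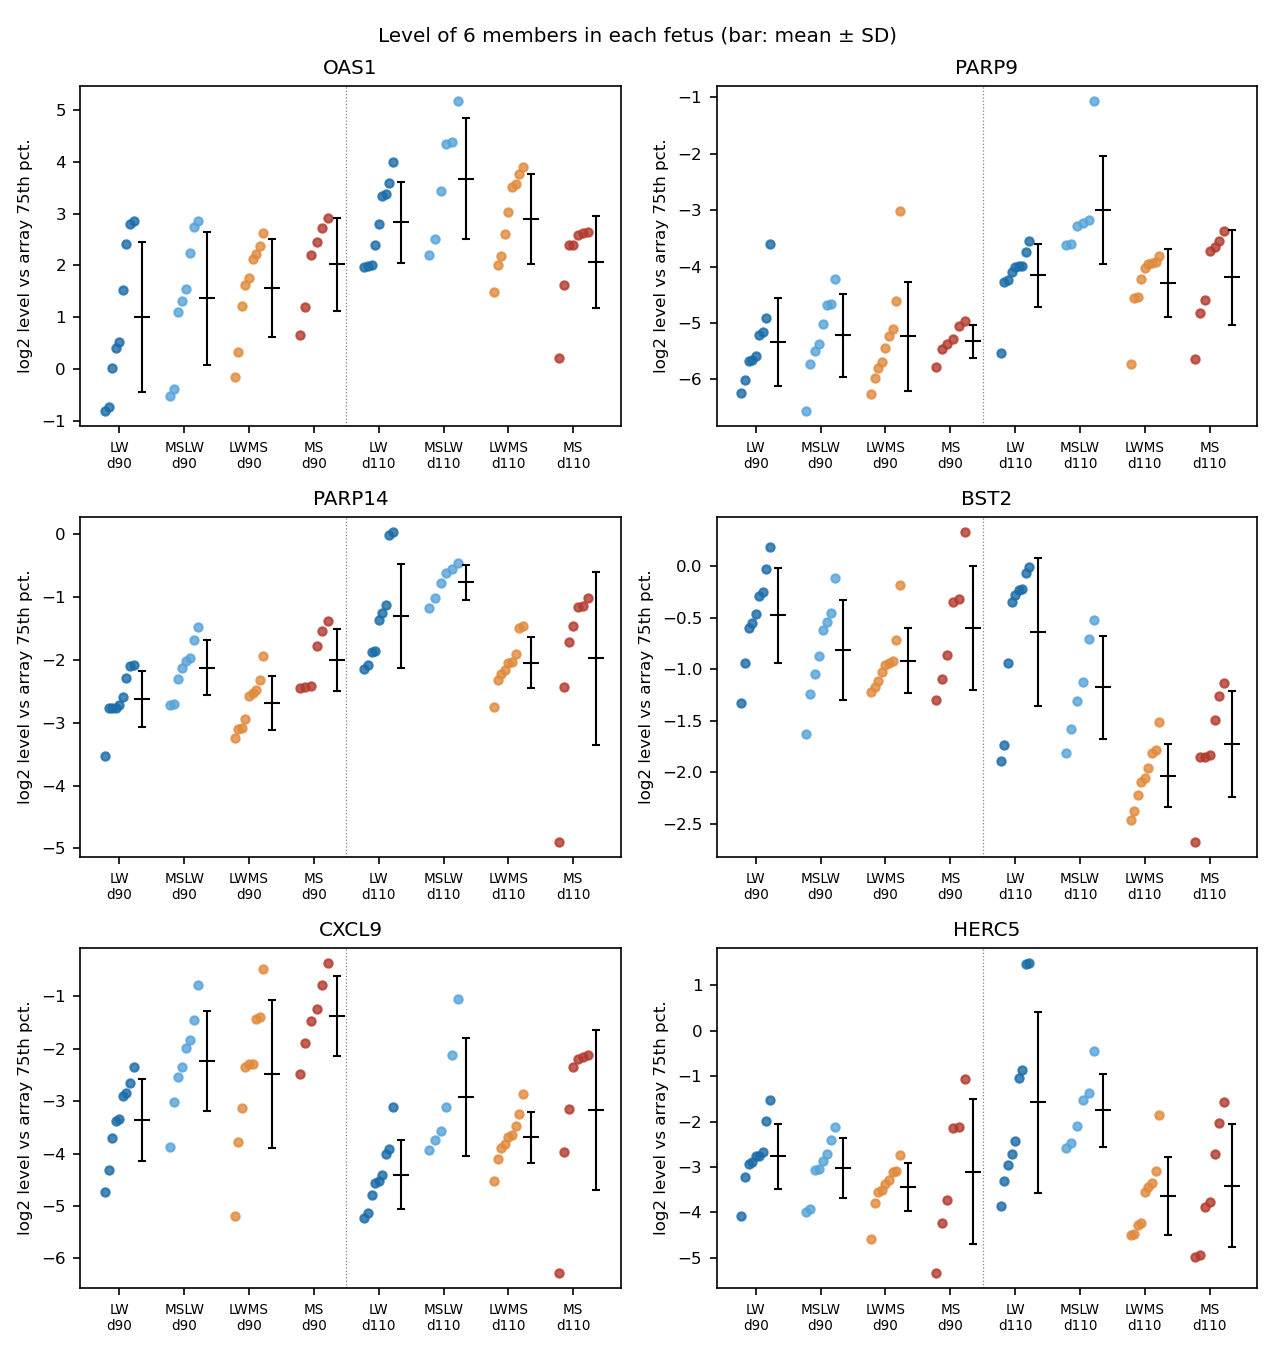
Log2 level above the array's 75th percentile (vertical axis) of OAS1, PARP9, PARP14, BST2, CXCL9 and HERC5 in each fetus, by group (horizontal axis), with points in order of value and a bar for the mean ± SD of 6 to 9 fetuses. The means of OAS1 were higher at day 110 in LW, MSLW and LWMS, those of BST2 were lowest in LWMS and MS at day 110, and single fetuses lay far from their group for HERC5 in LW and for PARP14 and CXCL9 in MS at day 110.

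Within single genotypes few members passed. Purebred LW fetuses had 2 of 41 called, 4.88% against 4.77% of all probes (2.23% higher and 2.54% lower), both higher at day 110: OAS1 by 1.83 ± 0.49 (adjusted p = 0.0082) and PARP14 by 1.33 ± 0.31 (adjusted p = 0.0020). Neither passed without fetuses 572 and 575, where OAS1 was at 1.65 and PARP14 at 0.95, nor did OAS1 without fetuses 484 and 469 (1.69), with its probes averaged (1.76), with median centring (1.81) or without a filter. Purebred MS fetuses had 2 called (all probes: 3.17%, with 1.69% higher and 1.48% lower), both lower: BST2, and IRF7 by -0.88 ± 0.22 (adjusted p = 0.0067). IRF7 is the factor that amplifies type I interferon production. It ranged from 3.41 to 4.09 in MS at day 90 (n = 6) and from 2.59 to 3.16 at day 110 (n = 7), without overlap, and lost its call with slide as a block (-0.82), with its probes averaged (-0.83), with median centring (-0.75) and without a filter on dim probes. LWMS fetuses had 1 called, BST2, fewer than the share of all probes (9.88%, with 4.2% higher and 5.68% lower). MSLW fetuses had 3 called (all probes: 5.41%, with 2.47% higher and 2.94% lower), all higher: OAS1 by 2.31 ± 0.56 (adjusted p = 0.0032), PARP9, near background at day 90, by 2.23 ± 0.40 and PARP14 by 1.36 ± 0.35 (adjusted p = 0.0061). For PARP14 the 6 fetuses at day 110 lay above all 8 at day 90. With slide as a block, or without fetuses 498 and 481, whose means over the members were the highest of the MSLW fetuses at their age, OAS1 (2.04 and 2.01) and PARP14 (1.14 and 1.40) lost their calls in MSLW, PARP14 also with median centring (1.29) and without a filter. The difference of PARP9 was 2.24 and 2.37 in these fits and 1.47 as the median within slides. Each genotype was compared with its own day 90 fetuses, and differences between genotypes were tested as interactions, further below.

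On the same 8 slides the mean change with age had one direction throughout for OAS1, PARP14, IFIH1, CXCL9, CXCL10 and BST2, and on 6 of 8 slides for IFIT1. PARP9 is left out here, since it passed the filter through day 110 groups alone. Some of these differences were near 0 on a slide, at 0.0009 for IFIH1, 0.07 for PARP14, -0.06 for CXCL10 and -0.09 for BST2. The remaining 33 members did not pass for the mean of the 4 genotypes, and ISG15, the ubiquitin-like protein that is among the most induced products of interferon, was at 0.75 ± 0.26 (adjusted p = 0.016). Cell type markers moved with age as well. Among erythroid markers 3 of 4 fell, among macrophage markers 3 of 8 rose, and among enterocyte markers 3 of 9 rose and 1 fell. For all probes the shares were 6.12% higher and 7.62% lower. Means over the 9 mesenchymal and muscle markers were lower at day 110 in each genotype. They were 5.26 and 5.03 in LW, 5.38 and 4.74 in MSLW, 5.25 and 4.73 in LWMS, and 5.16 and 4.95 in MS. Endothelial means were also lower in each, and those of granulocyte, B cell and dendritic cell markers moved in both directions. T and NK cell markers had none of 9 called for the mean of the genotypes. The part of these shifts in the changes of the members was not tested.

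Purebred MS and LW fetuses differed at day 90 for 2 members, 4.88% against 3.59% of all probes (1.32% higher and 2.27% lower), both higher in MS. CXCL9 was higher by 1.98 ± 0.52 (adjusted p = 0.0090), 3.95-fold, with 6 MS fetuses from -2.48 to -0.37 and 9 LW fetuses from -4.73 to -2.35. IRF1, the factor at the centre of the response to interferon gamma, ranged from 1.46 to 1.93 in MS and from 0.55 to 1.23 in LW, without overlap, a difference of 0.80 ± 0.17 (adjusted p = 0.00079). The call of CXCL9 was lost with slide as a block (1.92), without a filter on dim probes and without fetuses 572 and 575 (1.98 in both), and that of IRF1 with its probes averaged (0.51). With median centring neither passed (1.95 and 0.76). Across the 41 members the median difference was 0.47 and 33 were higher in MS, against a median of 0.03 over all probes. Erythroid markers moved with this comparison, all 4 higher in MS with a median of 1.30, as did the 6 granulocyte markers, with a median of 1.60. Their part in the difference was not tested.

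At day 110 the purebred fetuses also differed for 2 members (all probes: 5.01%, with 1.84% higher and 3.17% lower), both lower in MS. BST2 was lower by 1.09 (SE 0.25, adjusted p = 0.0016), with a median of -1.83 in 7 MS fetuses against -0.28 in 9 LW fetuses. IFI35, a regulator that binds NMI and other leucine-zipper proteins, ranged from -2.94 to -0.95 in MS and from -0.92 to -0.34 in LW, without overlap, and was lower by 0.80 (SE 0.18, adjusted p = 0.0013). Fetus 632 had the lowest value of IFI35, -2.94, and the next was -1.41. The median over the members was -0.15, with 12 of 41 above 0 and 29 below. Without fetuses 572 and 575, 26 of 41 were above 0, and without fetus 632, 21, so the direction of most members turned with the former. These fetuses had been picked for extreme means over the members, so both refits move the members upward on average by that choice. Without fetus 632, BST2 and IFI35 passed beside CXCL9 and STAT2, which were higher in MS, and without fetuses 572 and 575 the member called was IFI35, with BST2 at -0.95. With median centring neither passed (-0.97 and -0.68).

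By sow breed, averaged over sire and age, 6 members were lower (all probes: 8.84%) and 4 higher (7.07%) in fetuses of MS sows. The lower ones were HERC5, MX2, BST2, PARP14, TRIM21 and IFI44L. HERC5 is the ligase that attaches ISG15 to newly made proteins. In 31 fetuses of MS sows HERC5 ranged from -5.33 to -1.07 (median -3.50) and in 32 of LW sows from -4.08 to 1.48 (median -2.69), a difference of -1.12 ± 0.29 (adjusted p = 0.0045). The sow breeds overlapped widely for HERC5. At day 90 its group means lay between -3.45 ± 0.53 (LWMS) and -2.76 ± 0.72 (LW), and at day 110 they were -3.64 ± 0.85 (LWMS) and -3.41 ± 1.35 (MS) against -1.58 ± 1.99 (LW) and -1.75 ± 0.80 (MSLW). MX2, a dynamin-like GTPase that blocks virus entry to the nucleus, differed by -0.63 ± 0.22 (adjusted p = 0.038), BST2 by -0.54 ± 0.13 (adjusted p = 0.0015) and PARP14 by -0.48 ± 0.17 (adjusted p = 0.040). TRIM21, an antibody receptor inside the cell, differed by -0.31 ± 0.09 (adjusted p = 0.013), and IFI44L by -0.29 ± 0.10 (adjusted p = 0.047). MX2, PARP14 and IFI44L lost their calls without fetuses 572 and 575, at -0.42, -0.38 and -0.21. They also lost them without fetuses 498 and 481, at -0.52, -0.44 and -0.25, and IFI44L without fetus 632 (-0.27), PARP14 and IFI44L without fetus 609, an LWMS fetus of day 110 (-0.45 and -0.28). The calls of all 3 were lost too with the authors' processed values (-0.42, -0.34 and -0.24), with median centring and without a filter. HERC5, BST2 and TRIM21 passed without each of these fetuses, and TRIM21 did not pass with median centring (-0.20) or the authors' processed values (-0.16).

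The 4 members that were higher under MS sows were IRF1, IRF3, STAT2 and PSMB10, with smaller differences and a tighter spread. IRF1 was higher by 0.30 ± 0.08 (adjusted p = 0.0071), and its call was lost with its probes averaged (0.11). IRF3, which carries the signal from the sensors to the interferon genes, was higher by 0.22 ± 0.06 (adjusted p = 0.0049). Group means of IRF3 ran from 3.54 ± 0.16 (LW, day 90) to 3.94 ± 0.21 (LWMS, day 110), with 3.76 ± 0.19 and 3.87 ± 0.15 under MS sows at day 90 against 3.54 and 3.56 ± 0.18 under LW sows. STAT2 was higher by 0.23 ± 0.07 (adjusted p = 0.023), and PSMB10, a catalytic subunit of the immunoproteasome, by 0.28 ± 0.10 (adjusted p = 0.042), a call that was lost without fetuses 572 and 575 (0.28). With the authors' processed values IRF3 (0.12), STAT2 (0.17) and PSMB10 (0.16) did not pass, nor did STAT2 with its probes averaged (0.12) or PSMB10 without a filter. On all 8 slides the sow difference had one direction for HERC5, BST2, PARP14, TRIM21, IRF1, IRF3 and STAT2, and on 7 of 8 for MX2, IFI44L and PSMB10. It came near 0 on a slide for TRIM21 (-0.02), IRF3 (0.05) and PARP14 (-0.06).

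By sire breed 3 members differed, all higher in the 27 fetuses of MS sires (all probes: 3.1% higher and 3.87% lower). CXCL9 was higher by 1.06 ± 0.25 (adjusted p = 0.0033), USP18, the protease that removes ISG15 and dampens the interferon receptor, by 0.52 ± 0.14 (adjusted p = 0.014), and TAP1 by 0.37 ± 0.11 (adjusted p = 0.026). CXCL9 ranged from -6.28 to -0.37 under MS sires (median -2.20) and from -5.24 to -0.47 in 36 fetuses of LW sires (median -3.67). USP18 ranged from 1.41 to 3.11 (median 2.15) and from 0.73 to 3.92 (median 1.48). Both ranges overlapped widely, and the highest values of USP18, 3.92 and 3.68, were those of fetuses 572 and 575, of LW sires. The count by sire moved with 3 fetuses. Without fetus 632 it was 12 of 41, all higher (all probes: 7.47%), and without fetuses 572 and 575 it was 15 of 41, all higher (6.78%), ISG15, MX1, IFI44L and IFIT3 among them in both cases. These 3 fetuses had been picked for extreme means over these same members, low under an MS sire and high under LW sires. Leaving them out moves the sire differences of the members upward on average by that choice. The larger counts are therefore no evidence of a sire difference. Each of the 3 calls had the same direction on 7 of 8 slides, and TAP1 did not pass without fetuses 498 and 481 (0.33). USP18 and TAP1 did not pass with median centring (0.45 and 0.31) or with their probes averaged (0.44 and 0.24).

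No member passed a test of an interaction, by limma, at the thresholds used. For the breed by age interaction (0.0173% of all probes called, 0.00247% higher and 0.0148% lower) the smallest adjusted p was 0.34, for IRF7, and 16 of 41 members had an unadjusted p under 0.05, as did 6.65% of all probes. For the sow breed by age interaction (0.388%, with 0.19% higher and 0.197% lower) the smallest adjusted p was 0.080, for IFI44L, and 20 members had an unadjusted p under 0.05, as did 10.9% of all probes. For the sire breed by age interaction (0%) 2 members had one, as did 1.75% of all probes, and the smallest adjusted p was close to 1. With arrays weighted by quality, 2 members passed for the sow breed by age interaction. The direction was shared by most members all the same. In the sow breed by age interaction 37 of 41 values were below 0, with a median of -0.55, against 51.2% of all probes with a median of -0.01. The members vary together between fetuses, as described below, so the count of 37 is not a count of independent genes.

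In fetuses of LW sows 34 of 41 members had a change with age above 0, with a median of 0.34, and in fetuses of MS sows 15 of 41, with a median of -0.08. ISG15 changed by 1.43 ± 0.36 under LW sows and by 0.06 ± 0.37 under MS sows. For HERC5 the values were 1.23 ± 0.40 and -0.25 ± 0.41, for OAS2, the larger oligoadenylate synthetase, 1.03 ± 0.34 and -0.40 ± 0.35, and for IFI6 0.33 ± 0.31 and -0.73 ± 0.31. OAS1 changed by 2.07 ± 0.37 and 0.68 ± 0.38, and PARP14 by 1.34 ± 0.23 and 0.34 ± 0.24. These changes of single genes include fetuses 572, 575 and 632 and are not given without them. Fetuses 572 and 575 were the 2 highest LW fetuses at day 110 for ISG15, HERC5, OAS2, IFI6 and PARP14. The changes of these genes under LW sows thus rest in part on them. Members with a like change under both were STAT2 (0.29 ± 0.10 and 0.33 ± 0.10), DDX58 (0.04 ± 0.29 and 0.03 ± 0.30) and IRF2 (0.16 ± 0.10 and 0.21 ± 0.10). OAS2, DDX58 and IRF2 were named after their values were seen. Without fetuses 572 and 575 the sow breed by age values were below 0 for 34 of 41 members (median -0.46), and without fetus 632 for 37 (median -0.45). For the purebred fetuses the interaction was below 0 for 37 members (median -0.65), for 30 without fetuses 572 and 575 (median -0.36), and for 33 without fetus 632 (median -0.50), where 8 had an unadjusted p under 0.05. With arrays centred on the median in place of the 75th percentile, which moved the median of all probes by 0.18 in this interaction, 32 members were below 0 (median -0.36).

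**Figure D3:**
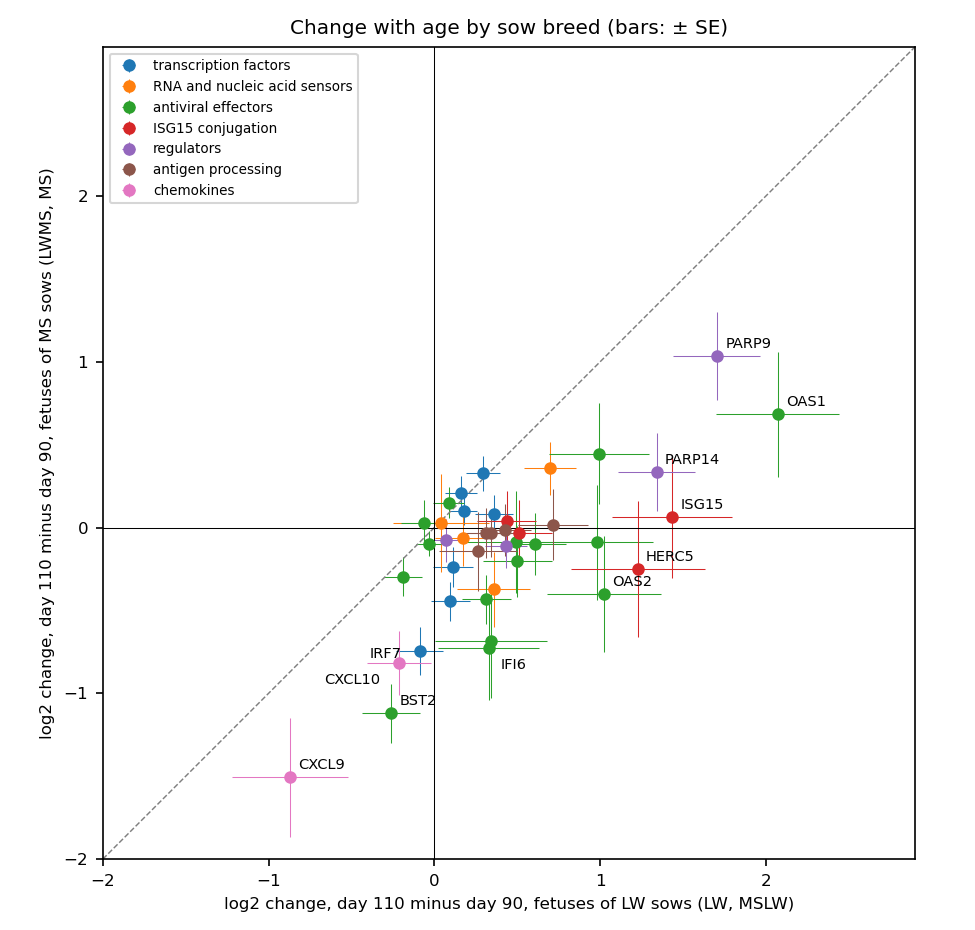
Change from day 90 to day 110 (log2) of the 41 members under LW sows (horizontal axis) and MS sows (vertical axis), coloured by role, with bars for ± SE and a dashed line where both changes are equal. Of the 41 points 37 lie below the line, OAS1, PARP9, PARP14, ISG15, HERC5 and OAS2 farthest to the right and CXCL9 and BST2 lowest.

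The marker lists differed in this respect, and CD163 was their one call in the sow breed by age interaction. All 6 granulocyte markers were below 0 in the sow breed by age interaction (median -1.59), as were all 4 erythroid markers (median -1.35), all 9 T and NK cell markers (median -0.40), 8 of 9 enterocyte markers (median -0.15), 6 of 7 B cell markers (median -0.70) and all 3 dendritic cell markers (median -0.41). Above 0 were 6 of 9 mesenchymal and muscle markers (median 0.04), 4 of 6 endothelial markers (median 0.03) and 4 of 8 macrophage markers (median 0.12). CD163, a macrophage marker, was at 1.28 ± 0.27 (adjusted p = 0.011). The mean log2 level over the granulocyte markers ran from -5.24 to -0.77 in MS at day 110 and from -4.72 to -1.30 in LW at day 110. Their part in the members' values was not tested.

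The members varied together from fetus to fetus within groups. After subtracting group means, the mean Pearson's r over the 820 pairs of members was 0.27, against 0.0081 over pairs of all tested probes with no missing value, and 162 pairs (19.8%) were above 0.5. Both means are signed, so pairs of opposite sign cancel in them. The share of pairs above 0.5 over all probes was not computed, so the 19.8% has no base beside it. These values are descriptions over 63 fetuses that share arrays, slides and litters. With slide means subtracted as well the mean was 0.26, and by ranks 0.23. Without fetuses 572, 575, 632, 498 and 481 it was 0.16, with 86 pairs above 0.5. A block of genes of the type I response led, named after their values were seen: ISG15 followed the mean of the other members with r = 0.93, MX1 and XAF1 with 0.89, IFIT3 with 0.88, USP18 with 0.87, IFI6 with 0.84 and HERC5 with 0.81. MX1 is a GTPase that traps viral nucleocapsids, and XAF1 promotes apoptosis. The closest pair was MX1 and USP18, with r = 0.93, and 0.84 without the 5 fetuses. TDRD7 (-0.09), IRF2 (-0.08), IRF3 (0.07) and STAT2 (0.10) did not follow the others. OAS1, the member with the largest change with age, followed them weakly (0.35), and PARP9 more weakly (0.21).

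A second block, also named after its values were seen, joined antigen processing genes, both chemokines and IFI35. CXCL9 and CXCL10, with 1 gene between them in the RefSeq table, had r = 0.69, and PSMB8 and TAP2, which are neighbours, had 0.67. MX1 and MX2, also neighbours, had 0.76, or 0.54 without the 5 fetuses, and OAS1 and OAS2 0.39. Over the 14 pairs of members with at most 5 genes between them, r ran from 0.28 to 0.76 with a median of 0.50. The mean of the members followed the mean of 24 other interferon-stimulated genes, which include GBP and IFITM genes, with r = 0.90, or 0.71 without the 5 fetuses. It followed T and NK cell markers with 0.33, granulocyte markers with 0.25, erythroid markers with 0.20, enterocyte and macrophage markers with 0.09 each, and the share of probes well above background with 0.20.

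**Figure D4:**
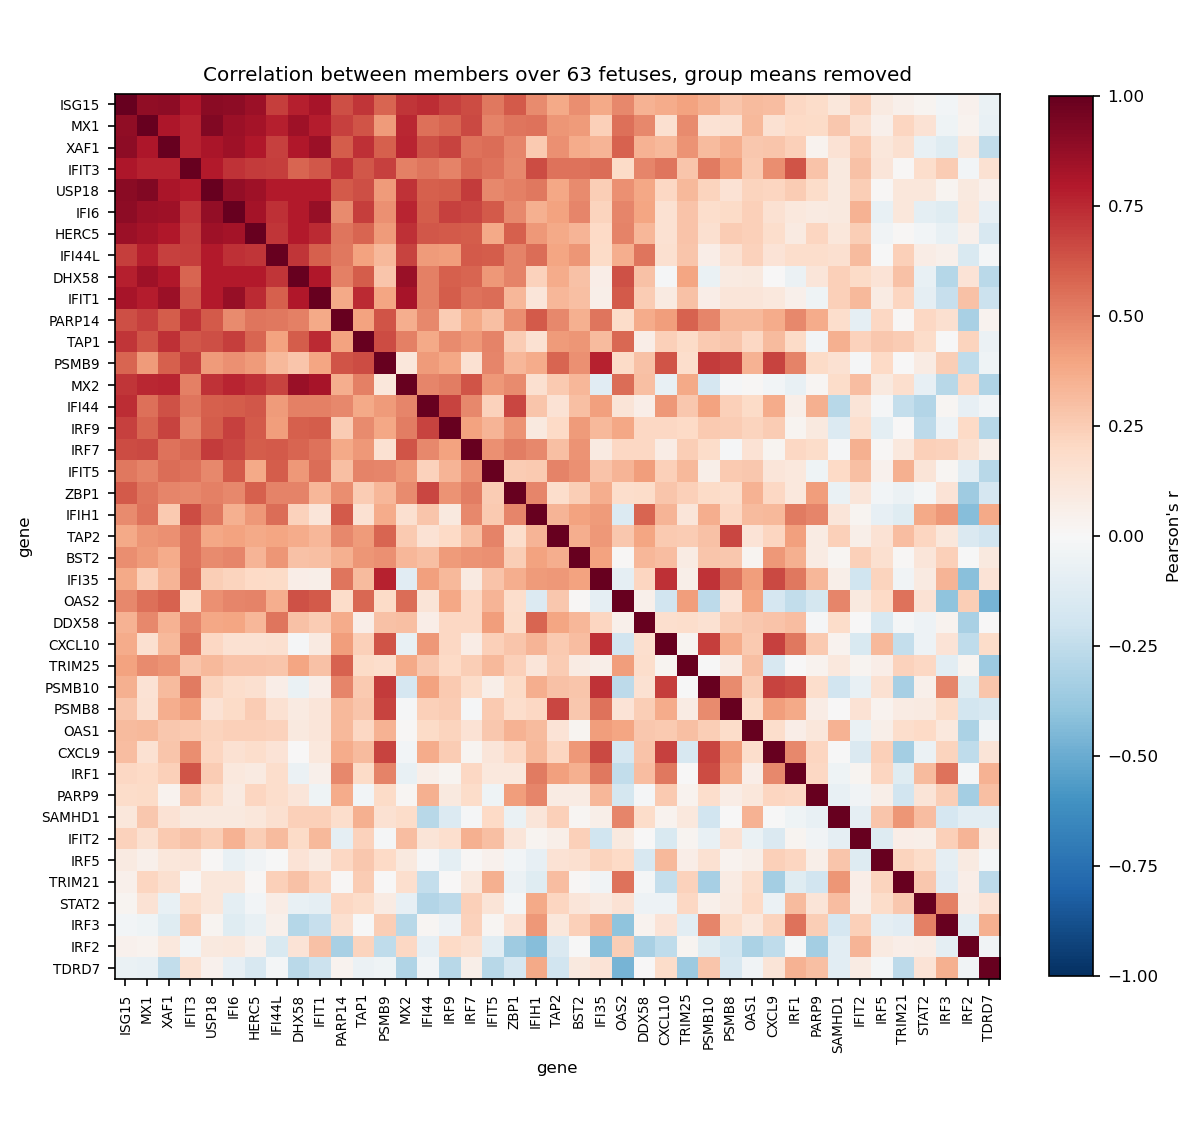
Pearson's r between the 41 members (both axes, in order of their correlation with the mean of the other members) over 63 fetuses after subtracting group means, from blue at -1 to red at 1. The upper left block, from ISG15 to IFIT1, holds the highest values, and a second block joins PSMB9, IFI35, CXCL10, PSMB10 and CXCL9.

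A few fetuses stood out in the levels themselves. Fetuses 572 and 575 had ISG15 at 5.61 and 5.75, where the group median was 2.01 and its lowest value 0.96, MX1 at 5.62 and 5.84, IFI6 at 7.81 and 7.52, and HERC5 at 1.48 and 1.47. They were the 2 highest LW fetuses at day 110 for 20 of 41 members. Their enterocyte markers averaged 4.42 and 3.31, with 2 other fetuses of the group at 4.23 and 4.57 and the remaining 5 from 5.53 to 6.10. Fetus 632 was the lowest MS fetus at day 110 for 30 of 41 members. Fetus 481 (MSLW, day 110) had a mean over the members of 1.12 against 0.39 to 0.65 in its group, and fetus 498 (MSLW, day 90) one of 0.73 against -0.11 to 0.25. Of these 5 fetuses, the 4 high ones had LW sows and the low one an MS sow. Whether such fetuses shared a litter is not given in the labels.

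**Figure D5:**
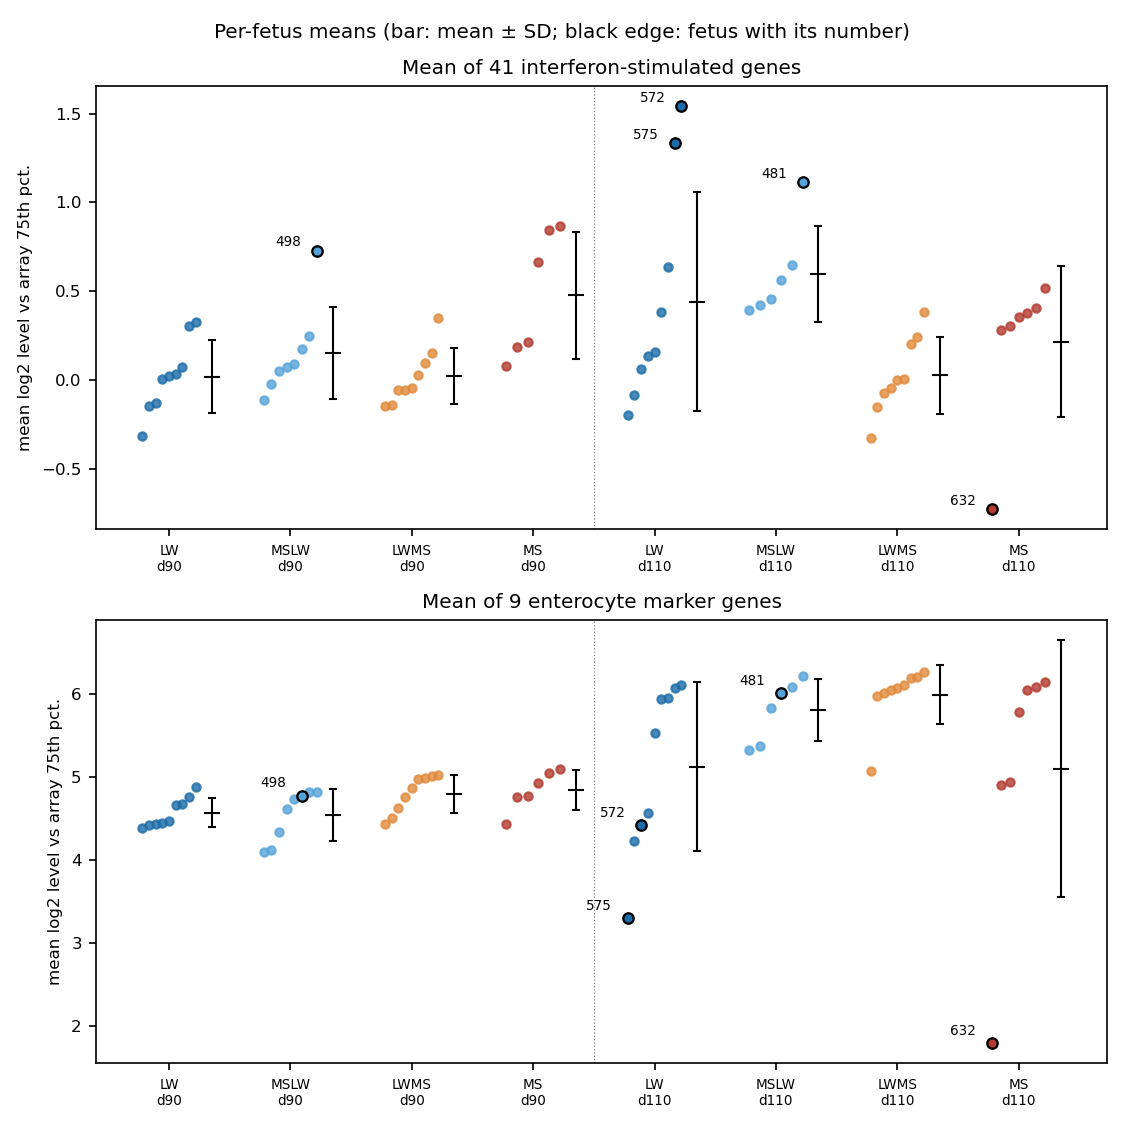
Mean log2 level above the array's 75th percentile over the 41 members (upper panel) and over 9 enterocyte markers (lower panel) in each fetus, by group, with bars for mean ± SD and black edges on fetuses 498, 572, 575, 481 and 632. Fetuses 572 and 575 are highest in the upper panel at 1.54 and 1.33, and fetus 632 is lowest in both panels.

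The median SD within groups was 0.50 over the members and 0.43 over all tested probes, and it was largest for HERC5 (1.16), OAS1 (1.06), ISG15 (1.03) and CXCL9 (1.01). For 32 of 41 members it was larger at day 110 than at day 90, with medians of 0.55 and 0.44, and for 24597 of 40515 probes overall. Without the 5 fetuses it was larger at day 110 for 17 of 41 members, with medians of 0.41 at day 110 and 0.39 at day 90.

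Several members had probes that disagreed. IRF2, which opposes IRF1 at its target sites, was not called by its brightest probe in any comparison, whereas its other probe was lower in MS at day 110 by 1.34 (adjusted p = 1.8e-05), under MS sows by 0.56 (adjusted p = 0.00034) and under MS sires by 0.52 (adjusted p = 0.0015). The 2 probes of IRF2 printed above share no long run. IRF1 was carried by a pair of probes that agreed (0.80 and 0.78 at day 90) and another at -0.05. OAS2 was not called by its brightest probe, but 3 of its other probes were lower under MS sows, by 0.73 to 0.93. IFIT2 had 2 other probes that were higher under MS sires, by 0.63 and 0.81. For IRF7 another probe fell in LWMS by 0.79 and over the genotypes by 0.59. Of the 3 probes of IRF3, 2 hold the same 60 bases and gave 0.22 each by sow breed, and the other gave 0.18 and was not called (adjusted p = 0.24). Counted by probe, 22 of 101 were called by sow breed (all probes: 15.9%) and 11 by sire breed (6.97%). For the mean change with age 13 of 101 were called, near the 13.7% of all probes.

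Other genes of the pathway were described from lists. Of the interferons themselves IFNE and IL29 were tested. IFNE, an interferon of epithelia, fell with age by 1.20 (SE 0.18) and was lower in MS than in LW fetuses at day 90 by 1.77, and IL29 was not called. Among 15 receptors and JAK-STAT genes 2 rose with age (13.3%, near the 13.7% of all probes), IFNGR2 by 0.69 ± 0.11 and STAT3 by 0.57 ± 0.11. Among 14 genes that lead from sensing to interferon 2 rose with age (14.3%, also near that share), the RNA sensor TLR3 by 0.66 ± 0.10 and the DNA sensor IFI16 by 0.63 ± 0.10, and the adaptor TRAF6 was lower under MS sows by 1.60 (SE 0.15). Of the 24 other interferon-stimulated genes 8 rose with age and 1 fell, 37.5% against 13.7% of all probes. TNFSF13B rose by 1.35 ± 0.27 and LGALS9 by 0.89 ± 0.12, and CASP1 fell by 1.11 (SE 0.12). Under MS sows 4 of the 24 were lower (all probes: 15.9% called, 8.84% lower), GBP4 (as the array names its probe) by 0.99 and OASL by 0.92 among them, and none was higher. GBP4 in MS fetuses at day 110 was at -1.78 ± 0.93, against 0.73 ± 0.52 in LW.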

How the data were processed

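Jejunum RNA of 63 fetuses was labelled with Cy3 and hybridised to Agilent 8 × 60K arrays. The authors deposited the spot intensity of every array, raw and background-corrected, from Agilent Feature Extraction 10.10.1.1, and a normalised log2 matrix of 39446 probes. Here the corrected intensity was put on the log2 scale, the array's 75th percentile subtracted, control spots left out, outlier spots set to missing and spots of 1 probe averaged. No spot was saturated. Probes entered the test if, in 1 group or more, 75% or more of its arrays had them well above background. Background subtraction makes changes near the floor uncertain, and the number of arrays limits the precision.

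The 8 group means were fitted to each probe with limma 3.58.1 in R 4.3.3, with moderated variances shared by all groups, and two-sided p-values were adjusted by Benjamini-Hochberg over the 40515 probes. The thresholds for age and for purebred fetuses are those of the study's methods. A random sow effect, as in the study, was not fitted, since the labels do not give the sow. Tables were made with Python 3.11.15, pandas 2.3.3 and numpy 2.4.6, and the fit was tested on simulated data. Members, pathway lists and markers were chosen with earlier results of these data known. Values per group are given for members called in a comparison and for the brightest member of each role, and at most the 4 largest called genes of a pathway list are named. Of the 106 probes, 56 had an accession among RefSeq genes of Sscrofa11.1, all with the same symbol.

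Alternatives were the authors' log2 values, the normexp background method (offset 50), median centring, no filter, slide as a block, array weights, averaged probes, and leaving out LW fetuses 484 and 469. Leaving out fetuses 632, 609, 498 with 481, and 572 with 575 was chosen after seeing the data.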

Additional observations from a re-analysis of the deposited data

Results flagged for a closer look

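In 184 combinations of a named member, or the mean over the members, and a group, 29 had a fetus whose gap to the nearest other was large for the range of its group by Dixon's test. Chance gives about 1 in 20. Fetus 632 (MS, day 110) was lowest for ISG15 (0.33), OAS1 (0.20), USP18 (1.41), PSMB10 (3.57), PARP14 (-4.90), IFI35 (-2.94) and the mean over the members (-0.72). Fetus 609 (LWMS, day 110) was lowest for IRF1 (1.06), IRF3 (3.44), IFIH1 (-0.98), PSMB10 (4.58) and PARP9 (-5.73). Fetus 498 (MSLW, day 90) was highest for ISG15 (3.13), IFI44L (-0.16), IFI6 (5.65) and the mean over the members (0.73), and fetus 481 (MSLW, day 110) for IFIT1 (0.63) and the mean (1.12).

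Fetus 532 (MS, day 90) was lowest for IRF3 (3.57) and STAT2 (1.09), and fetus 504 (LWMS, day 90) for IRF3 (3.32). Fetus 508 (LWMS, day 90) was highest for TAP1 (2.997) and BST2 (-0.18), and fetus 622 (LWMS, day 110) for IFI6 (4.35). Fetus 484 (LW, day 90) was lowest for STAT2 (0.16) and highest for PARP9 (-3.60), and fetus 449 of the same group was lowest for PARP14 (-3.54). For PARP9, fetus 559 (LW, day 110) was lowest (-5.53) and fetus 688 (MSLW, day 110) highest (-1.07). Fetuses 572 and 575 were not among these, since each lies near the other.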

How the results depend on the processing

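Values are counts of members called unless stated, with the share of all probes called in the same fit in parentheses. The mean change with age gave 8 (13.7%), and 6 to 9 under the alternatives (7.81% to 16.5%). With the authors' log2 values the count was 2 in place of 1 for age in LWMS (9.12%). It was 5 in place of 10 for sow breed (15.2%) and 5 in place of 3 for sire breed (7.42%). Median centring gave 1 for age in LW (main 2, 2.59%), 0 in MS (main 2, 2.16%) and 0 in LWMS (main 1, 6.34%). It gave 0 for MS minus LW at day 90 (main 2, 2.56%) and at day 110 (main 2, 3.3%). For sow it gave 6 (main 10, 15.3%) and for sire 1 (main 3, 4.84%). It moved the median log2 difference of all probes by 0.13 in MS, 0.14 in LWMS, 0.12 at day 110, 0.11 for sow breed and 0.16 in the breed by age interaction. Without a filter the counts were 1 for age in LW (2.71%), 1 in MS (1.7%), 1 for MS minus LW at day 90 (2.11%) and 6 for sow (10%). Slide as a block gave 1 for age in MSLW (main 3, 5.91%), 1 at day 90 (3.81%) and 5 for sire (8.52%). Array weights, with more calls over all probes too, gave 7 for age in LW (8.13%), 4 in LWMS (14.8%) and 5 in MSLW (8.91%). They gave 5 at day 90 (7.22%), 7 at day 110 (15.7%) and 13 for sow (32.7%). For sire they gave 14, 11 higher and 3 lower (15.6%), and for sow breed by age 2 (main 0, 1.87%). For sow breed the members' share was no higher than that of all probes with the authors' values, median centring or array weights. Averaged probes gave 1 for age in LW (4.78%), 1 in MS (3.17%) and 5 for sire (6.97%). Without fetus 632 the count was 1 for age in MS (3.53%), 4 at day 110 (5.43%) and 12 for sire (7.47%). Without fetuses 572 and 575 it was 0 in LW (4%), 3 in LWMS (9.99%), 1 at day 110 (3.83%), 6 for sow (13.7%) and 15 for sire (6.78%). It was 1 in MSLW without fetuses 498 and 481 (4.36%), and 2 in LWMS without fetus 609 (10.7%). Fetuses 632, 572 and 575 were picked for extreme means over the members, and the larger counts for sire without them follow from that choice. The cause of the other shifts was not tested. Of the 33 single calls none changed direction in a refit. The number that no longer passed ran from 2 (array weights, without fetuses 484 and 469, without fetus 609) to 16 (median centring). No paired analysis was possible because the replicate numbers are fetus numbers that no groups share.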
